A study of Mus musculus with 36 samples.

Results

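Wild-type mouse gut was compared between embryonic days E12.5 and E10.5. All 6 libraries labelled wild type at E12.5 and all 6 labelled wild type at E10.5 were taken, 12 of the 36 RNA-seq libraries of a series that also holds E14.5 gut and Ret null gut. Each stage had 3 libraries labelled female and 3 labelled male, on the C57BL/6J strain, and the labels name no engineered allele, transgene or treatment for them. RNA came from guts dissected in cold medium, and the labels do not say how many guts made 1 library. Expression is given as FPKM, fragment counts that the authors' software scaled, which corrects for the length of the transcript and the depth of the library.

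Between these ages the mouse gut changes from a thin tube into a layered organ. Vagal neural crest cells migrate along it and found the enteric nervous system: they carry RET and its co-receptor GFRA1, which bind GDNF from the gut mesenchyme, and EDNRB, which binds endothelin 3. The mesenchyme around the endoderm receives Sonic and Indian hedgehog from the epithelium and forms smooth muscle under the coactivator myocardin. Hox genes mark position along the tube. The gut of this age lies against the mesonephros, the gonadal ridge, the liver, the pancreas and the spleen, and primordial germ cells pass through it on their way to the gonad, so RNA of those tissues can enter a dissected sample.

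Some libraries stood apart. The E12.5 libraries labelled female 1 and 2 held both Xist, the X-inactivation RNA, at 49.1 and 52.2 FPKM and the Y-linked Ddx3y at 4.91 and 4.98 FPKM; E12.5 female 3 had 97.0 and 0.0133 FPKM, and the 3 E12.5 males had 0.120 to 0.342 and 11.1 to 14.2 FPKM. These 2 libraries differed from each other by little more than sampling noise, with a spread of 1.09 times the noise and 0.740% of genes beyond 3 SD. E10.5 females 1 and 2 (0.906 times, 0.342%) and E10.5 males 3 and 4 (0.942 times, 0.356%) differed by less than the noise. In every other wild-type pair of a group the spread was 1.45 to 2.53 times that noise, with 8.42 to 27.9% of genes outside the limit. Each of the 3 close pairs was averaged and counted as 1 sample, which left 4 samples at E10.5 and 5 at E12.5. Whether the remaining samples are separate embryos or litters is not in the labels, so the p-values reflect only how far these samples scatter, and that scatter may be technical. Depth estimated from the authors' intervals was 8.60 to 21.1 M fragments in the E10.5 libraries and 28.0 to 38.1 M in those of E12.5, so depth and stage cannot be told apart; at E10.5 the libraries labelled male had 8.60 to 9.51 M. By these marker genes the averaged sample of E12.5 females 1 and 2 does not match its female label, yet it was kept under that label in every value given within females or between the sexes. E12.5 male 2 differed from the other E12.5 libraries in many of the genes described here, and values without it are given where they matter.

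Of 13026 genes tested, 783 differed between the stages (6.01%; limma on log2(FPKM + 1), Benjamini-Hochberg adjusted p under 0.05), 430 higher at E12.5 (3.30%) and 353 lower (2.71%). The median log2 fold change over all genes was 0.01. Of the 430, 419 were higher within both sexes as labelled, and 340 of the 353 were lower within both. The calls were made on the average over the sexes in the same fit, so these counts are no separate check. Tested within females alone, 0.560% of genes were higher and 0.299% lower, and within males alone 3.14% were higher and 3.29% lower. Libraries of the 2 stages did not overlap for 469 genes that were higher at E12.5 (3.6%) and 404 that were lower (3.10%). Leaving out 1 sample left 123 to 975 calls. The counts were 123 without E12.5 females 1 and 2, 158 without E10.5 male 5, 160 without E12.5 female 3, 189 without E10.5 males 3 and 4, 409 without E12.5 male 1 and 465 without E12.5 male 3. Without E10.5 female 3 the balance turned, with 230 genes higher and 311 lower.

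Genes of gut cell types made up most of the listed rises and genes of neighbouring organs more of the listed falls. Of 182 tested genes in lists of gut neurons, muscle, mesenchyme and epithelium, 51 rose (28.0%, beside 3.30% of all genes) and 9 fell (4.95%, beside 2.71%). Of 66 tested genes in lists of the urogenital organs, germ cells, liver, pancreas, spleen, lung, heart, somite and oesophageal or squamous epithelium, 1 rose (1.52%) and 15 fell (22.7%). The lists were drawn up with earlier results of these data known, so these shares are descriptions and carry no test. Genes were tested if they had at least 1 FPKM in 3 samples. A gene below 1 FPKM throughout 1 stage thus entered through the other stage, and only 1 direction of call was open to it. Among the 15 falls this held for Emx2, Wnt9b, Cdh16, Pax8, Dppa5a, Utf1, Dppa3 and Pax1, so that share partly reflects the filter. In bulk samples a change in the number of cells of a type and a change in RNA per cell cannot be told apart.

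**Figure D1:**
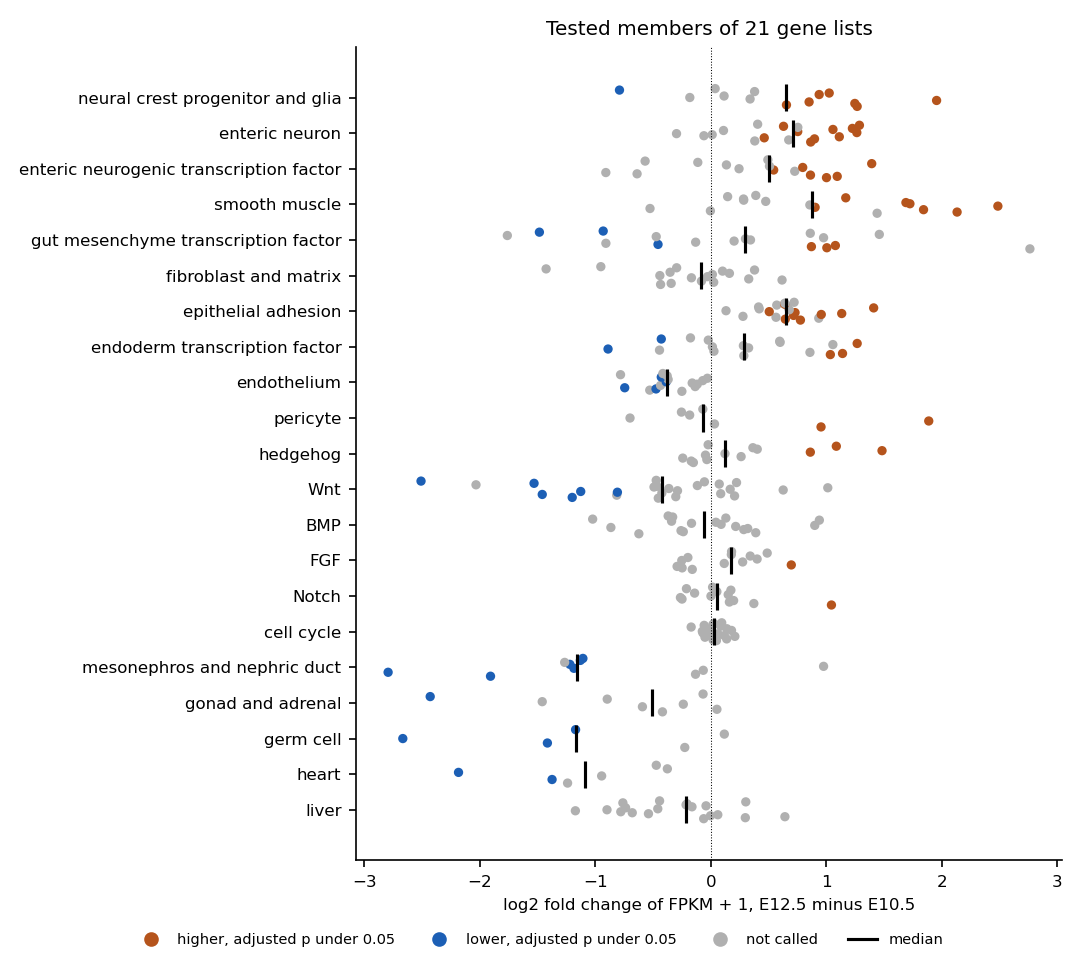
Each point is the log2 fold change of FPKM + 1 (E12.5 minus E10.5, horizontal axis) of 1 tested gene in 21 lists, orange where called higher, blue where called lower and grey where not called; the vertical bar is the list's median. The medians of the crest, neuron, smooth muscle and epithelial adhesion lists lie between 0.65 and 0.88, and those of the mesonephros, germ cell and heart lists between -1.17 and -1.09.

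The receptors that guide enteric neural crest were all higher at E12.5. Gfra1 (chr19:58236692-58454466, mm10), the GDNF co-receptor, had 1.93 FPKM in the lowest, 8.10 in the median and 13.9 in the highest E10.5 library, and 26.5, 28.6 and 33.9 FPKM in the lowest, median and highest E12.5 library. Every E12.5 library lay above every E10.5 library, and the log2 fold change was 1.95 ± 0.314 (SE; adjusted p = 0.0170). Ednrb (chr14:103814615-103844476), the endothelin receptor, went from 7.08, 12.1 and 14.6 FPKM (lowest, median, highest) to 19.6, 28.4 and 40.0 FPKM, again without overlap (1.27 ± 0.157, adjusted p = 0.00899), a call kept under every alternative setting run. Ret (chr6:118151748-118197744) had 2.11, 6.22 and 7.34 FPKM at E10.5 and 8.89, 10.1 and 13.3 FPKM at E12.5 (0.94 ± 0.204, adjusted p = 0.0398), a call that 11 of the 19 alternatives did not keep. The Ret libraries did not overlap either, and E10.5 female 3 was the lowest for all 3 receptors. The ligands did not pass the test: Gdnf averaged 4.95 ± 2.30 FPKM (SD, n = 4) at E10.5 and 9.43 ± 3.19 FPKM (n = 5) at E12.5 (adjusted p = 0.0546), and Edn3 10.8 ± 2.84 and 12.4 ± 5.17 FPKM (adjusted p = 0.833). Gfra3, the co-receptor for artemin, fell from 3.99 ± 0.365 to 1.28 ± 0.950 FPKM (adjusted p = 0.0343). Of the 13 tested genes of GDNF and endothelin signalling, 3 rose and 1 fell, with 1 to 4 rising when 1 sample was left out.

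Other genes of crest progenitors and glia rose too. Of the 13 tested members of this list (17 listed) 7 rose, of which 3 were the receptors Ret, Gfra1 and Ednrb and 4 were further genes, and 1 fell, with a median log2 fold change of 0.65, 0.75 within females and 0.56 within males. Sox10, the transcription factor of crest progenitors and glia, averaged 5.07 ± 2.78 FPKM at E10.5 and 10.54 ± 2.29 FPKM at E12.5 (adjusted p = 0.0422), Foxd3 1.09 ± 0.644 and 2.72 ± 0.495 FPKM (adjusted p = 0.0179), and the glial fatty acid-binding protein Fabp7 4.75 ± 2.68 and 11.9 ± 2.92 FPKM (adjusted p = 0.0133). Erbb3, a neuregulin receptor of glia, rose by 0.65 on the log2 scale (adjusted p = 0.0454). The call of Sox10 was lost in 13 of 19 alternatives and that of Erbb3 in 12 of 19. Tfap2b, a crest factor also known from sympathetic neurons, fell from 1.56 ± 0.212 to 0.465 ± 0.349 FPKM (adjusted p = 0.0266). Between 1 and 8 members rose when 1 sample was left out, the fewest without E10.5 male 5. The list's mean level ran from 1.34 to 2.24 on the log2(FPKM + 1) scale at E10.5 and from 2.26 to 2.45 at E12.5, without overlap.

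Neuronal genes rose as well. Of 18 tested neuron genes 10 rose and 0 fell, with a median log2 fold change of 0.71. Of the 15 tested neurogenic transcription factors 6 rose, among them Hand2 (33.6 ± 4.49 to 49.1 ± 2.41 FPKM, adjusted p = 0.00732) and the homeobox genes Dlx1 and Dlx2, with log2 fold changes of 1.09 and 0.86. When 1 sample was left out 2 to 7 of these factors rose, and 2 did so without E10.5 male 5 or without E12.5 females 1 and 2. Among cytoskeletal genes of neurons, the intermediate filaments Prph and Ina rose by 1.26 and 1.11 on the log2 scale (adjusted p = 0.0188 and 0.0160), and the RNA-binding protein gene Elavl4 by 0.90 (adjusted p = 0.0177).

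The neuronal rise was not the same in all libraries. The list's level ran from 2.002 to 3.45 at E10.5 and from 3.20 to 3.56 at E12.5, and E10.5 male 5 lay inside the E12.5 range. Tubb3, the neuronal tubulin, had 3.86, 12.8 and 25.1 FPKM at E10.5 and 21.3, 26.4 and 44.2 FPKM at E12.5, and the stages overlapped (adjusted p = 0.0361). Stmn2, a neuronal stathmin, had a log2 fold change of 2.16 within females and -0.05 within males, where E10.5 male 5 had 29.9 FPKM; the test of that difference between the sexes gave an adjusted p of 0.0916. The list's median was 1.11 within females and 0.22 within males. Without E10.5 males 3 and 4, or without E12.5 females 1 and 2, 0 of the 18 genes were called, and 9 were called in the most favourable case. At E10.5 the libraries with more neuronal RNA were also those of lower depth and of the male label; the part of either in the rise was not tested.

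Of the 12 tested transmitter and neuropeptide genes 4 rose and 0 fell. Cartpt, the precursor of the CART neuropeptide, had 0.126, 3.09 and 8.97 FPKM at E10.5 and 10.1, 12.03 and 20.7 FPKM at E12.5, without overlap (log2 fold change 2.05 ± 0.246, adjusted p = 0.00815). The nicotinic receptor subunits Chrna3 (1.33, adjusted p = 0.0291) and Chrnb4 (0.88, adjusted p = 0.0353) and the choline transporter Slc5a7 (0.62, adjusted p = 0.0242) rose too, and 1 to 5 of the list rose when 1 sample was left out. Genes of catecholamine synthesis were not called. Th, tyrosine hydroxylase, had 1.72, 6.09 and 23.1 FPKM at E10.5 and 0.645, 2.19 and 9.87 FPKM at E12.5, with wide overlap (adjusted p = 0.144). Within males Th was lower at E12.5 (log2 fold change -2.97, adjusted p = 0.0185), within females it was 1.08 (adjusted p = 0.292), and the difference between the sexes had an adjusted p of 0.0710. Dbh, dopamine beta-hydroxylase, had the same pattern, -2.09 within males (adjusted p = 0.0433) and 0.94 within females (adjusted p = 0.366). E12.5 female 3 was the highest E12.5 library for both, at 9.87 FPKM of Th and 17.4 FPKM of Dbh; it was also the highest for the gonadal and adrenal factor Nr5a1. Sympathetic neurons and adrenal chromaffin precursors also express these enzymes, and their part in the values was not tested.

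**Figure D2:**
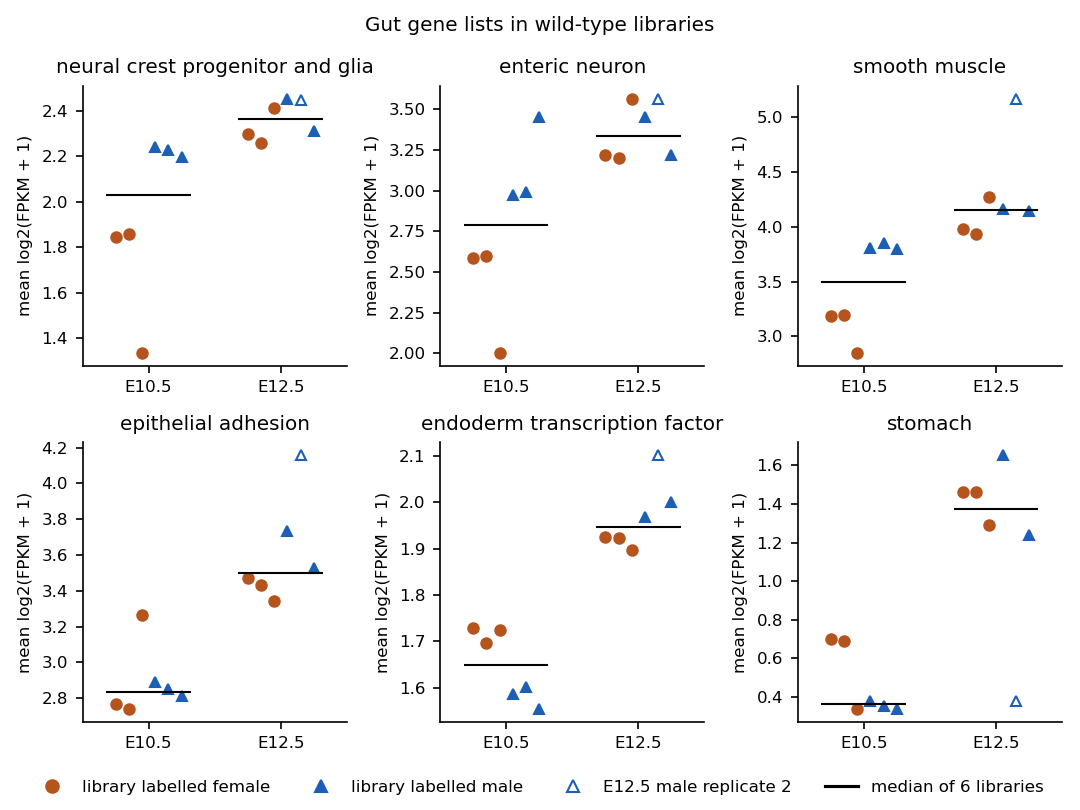
Mean log2(FPKM + 1) of 6 gut gene lists (vertical axis) in each of the 6 E10.5 and 6 E12.5 wild-type libraries (circles, labelled female; triangles, labelled male; open triangle, E12.5 male 2; line, median). The crest, smooth muscle, epithelial adhesion and endoderm lists do not overlap between the stages, and E12.5 male 2 lies highest in smooth muscle at 5.17 and lowest of its stage in the stomach list at 0.38.

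Contractile smooth muscle genes showed large fold changes among the gut genes. Myh11 (chr16:14194527-14291408), the smooth muscle myosin heavy chain, had 0.645, 3.24 and 6.67 FPKM (lowest, median, highest) at E10.5 and 9.68, 16.7 and 81.9 FPKM at E12.5. The stages did not overlap, and the log2 fold change was 2.48 ± 0.486 (adjusted p = 0.0303). Actg2 (chr6:83512909-83536251), the enteric smooth muscle actin, had 4.57, 19.7 and 36.1 FPKM and then 41.5, 60.1 and 212 FPKM (2.13 ± 0.413, adjusted p = 0.0297). Myocd, which encodes myocardin, went from 3.12 ± 2.06 to 11.6 ± 4.03 FPKM (adjusted p = 0.0160). Calponin (Cnn1, 1.84), myosin light chain kinase (Mylk, 1.72), synaptopodin 2 (Synpo2, 1.17) and leiomodin (Lmod1, 0.90) also rose on the log2 scale. Pdlim3, a muscle actinin-binding protein outside the list, rose from 4.80 ± 1.77 to 16.5 ± 2.31 FPKM (1.63 ± 0.203, adjusted p = 0.00899) and kept its call under every alternative setting run.

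In all, 7 of 16 tested smooth muscle genes rose and 0 fell, with a median of 0.88. Acta2 missed the threshold, though its libraries did not overlap (67.1 ± 28.2 and 207 ± 145 FPKM, adjusted p = 0.0591), and Tagln (46.4 ± 16.4 and 55.3 ± 31.9 FPKM, adjusted p = 0.852) and Des (21.1 ± 4.12 and 15.1 ± 5.07 FPKM, adjusted p = 0.149) did not pass. E12.5 male 2 carried the highest value of its stage for Myh11, Actg2, Cnn1, Mylk, Myocd, Synpo2 and Lmod1. Without it 9 smooth muscle genes were called higher, 1 was called lower, and the median was 0.70. Without E10.5 males 3 and 4 or without E12.5 females 1 and 2, 0 were called higher, and without E10.5 female 3, which had the lowest level, 1 was.

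Promoters of 4 smooth muscle genes are shown because serum response factor, the partner of myocardin, binds the CArG box. Of the 19 genes in the list, 15 had a window of 250 bases before to 50 after the start in RefSeq (GRCm38.p6), and 2 of these, Myl9 and Srf, held a CArG box on either strand, against 1.63% of the 32851 windows in the table. Their windows are chr2:156775214-156775513, plus strand, and chr17:46556113-46556412, minus strand, with the CArG boxes in capitals, 1 in Myl9 and 2 in Srf. Those of the rising genes Cnn1 (chr9:22099003-22099302, plus strand) and Mylk (chr16:34784700-34784999, plus strand) held no box within these letters.
Myl9: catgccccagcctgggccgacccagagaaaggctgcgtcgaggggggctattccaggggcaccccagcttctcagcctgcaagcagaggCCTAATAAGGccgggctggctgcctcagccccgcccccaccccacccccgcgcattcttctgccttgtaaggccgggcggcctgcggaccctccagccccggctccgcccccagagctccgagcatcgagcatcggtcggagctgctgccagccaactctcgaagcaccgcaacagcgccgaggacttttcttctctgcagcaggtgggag
Srf: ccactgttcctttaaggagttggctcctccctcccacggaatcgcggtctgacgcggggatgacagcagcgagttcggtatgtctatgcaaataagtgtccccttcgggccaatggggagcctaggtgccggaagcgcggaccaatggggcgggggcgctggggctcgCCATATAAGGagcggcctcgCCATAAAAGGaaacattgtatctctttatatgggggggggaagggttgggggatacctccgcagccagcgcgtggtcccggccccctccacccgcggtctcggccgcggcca
Cnn1: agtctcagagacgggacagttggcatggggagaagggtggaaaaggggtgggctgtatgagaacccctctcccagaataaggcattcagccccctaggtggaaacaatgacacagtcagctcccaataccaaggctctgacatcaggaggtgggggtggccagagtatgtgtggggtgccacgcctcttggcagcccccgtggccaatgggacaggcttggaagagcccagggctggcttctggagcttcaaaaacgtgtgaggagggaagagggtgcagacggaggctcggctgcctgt
Mylk: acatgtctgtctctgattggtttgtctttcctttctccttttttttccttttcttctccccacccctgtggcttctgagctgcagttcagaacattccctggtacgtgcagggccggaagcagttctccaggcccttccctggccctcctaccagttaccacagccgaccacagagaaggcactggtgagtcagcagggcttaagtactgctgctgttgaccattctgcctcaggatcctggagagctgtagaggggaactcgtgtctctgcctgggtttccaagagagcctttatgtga
Neither gene with a box in its window was called: Myl9, the regulatory myosin light chain, had 90.9 ± 33.5 and 178 ± 97.5 FPKM (adjusted p = 0.126), and Srf itself 16.6 ± 3.34 and 20.2 ± 1.87 FPKM (adjusted p = 0.235). The match is a description of these windows only.

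Mesenchymal transcription factors divided in direction. Of 17 tested, 3 rose and 3 fell. The rising genes were the forkhead factors of gut mesenchyme that respond to hedgehog: Foxf1 (39.0 ± 10.4 to 79.7 ± 12.2 FPKM, adjusted p = 0.0252), Foxf2 (13.5 ± 3.41 to 25.4 ± 4.04 FPKM, adjusted p = 0.0268) and Foxl1 (1.35 ± 0.600 to 3.91 ± 0.675 FPKM, adjusted p = 0.0230). None of the 3 overlapped between the stages. The falling genes were Twist1, Twist2 and Gata5. Gata5 averaged 4.86 ± 1.94 and 3.04 ± 0.767 FPKM (adjusted p = 0.0458), with overlap between the stages and a call lost in 13 of 18 alternatives. Its log2 fold change was -0.67 within females and -0.24 within males. Twist2, a basic helix-loop-helix factor of immature mesenchyme, had 14.1, 17.0 and 19.9 FPKM at E10.5 and 7.80, 8.30 and 9.07 FPKM at E12.5 (log2 fold change -0.93 ± 0.0998, adjusted p = 0.00641), and Twist1 averaged 31.5 ± 10 and 10.3 ± 3.86 FPKM (adjusted p = 0.0319). Without E10.5 males 3 and 4 or without E12.5 females 1 and 2, 0 genes of the list were called higher, and 5 were called higher without E12.5 male 2. Of 17 fibroblast and matrix genes 0 were called in either direction, with a median of -0.08.

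Hedgehog ligands of the epithelium rose with the forkhead genes. Ihh (chr1:74945318-74951651) had 0.905, 1.69 and 1.85 FPKM at E10.5 and 4.12, 5.71 and 8.90 FPKM at E12.5, well apart (1.482 ± 0.164, adjusted p = 0.00722). Shh (chr5:28456840-28467101) had 3.996, 6.24 and 7.08 FPKM and then 10.2, 11.5 and 25.2 FPKM (1.09 ± 0.229, adjusted p = 0.0363), with E12.5 male 2 highest. Hhip, a decoy receptor induced by the pathway, rose from 2.76 ± 0.740 to 5.84 ± 0.733 FPKM (adjusted p = 0.0156). The receptor and target Ptch1 (21.04 ± 4.98 and 28.0 ± 3.56 FPKM, adjusted p = 0.177) and the target Gli1 (21.2 ± 3.89 and 25.9 ± 3.46 FPKM, adjusted p = 0.178) did not pass. Of 13 tested hedgehog genes 3 rose, 0 fell and the median was 0.12; 1 to 5 rose when 1 sample was left out, and the call of Ihh was kept under every alternative setting run.

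Wnt genes showed the opposite direction. Of 25 tested, 0 rose and 6 fell, with a median of -0.42 and mean levels that did not overlap between the stages (2.72 to 2.80 at E10.5, 1.96 to 2.43 at E12.5). Wnt6 (chr1:74771892-74785319) had 4.36, 6.06 and 7.50 FPKM at E10.5 and 0.0837, 0.256 and 0.399 FPKM at E12.5 (-2.51 ± 0.149, adjusted p = 0.00127). Every E12.5 library was below 1 FPKM for this ligand. Wnt4 averaged 10.2 ± 3.04 and 2.73 ± 0.954 FPKM (adjusted p = 0.0111). Genes that Wnt signalling induces fell as well: the nuclear factor Lef1 (5.98 ± 1.69 to 1.495 ± 0.647 FPKM, adjusted p = 0.0160), and the feedback inhibitors Nkd1 (9.09 ± 0.971 to 4.75 ± 0.474 FPKM, adjusted p = 0.00732), Dkk1 (2.31 ± 0.679 to 0.418 ± 0.275 FPKM, adjusted p = 0.00904) and Notum (4.197 ± 0.681 to 1.39 ± 0.417 FPKM, adjusted p = 0.0130). Axin2, another such inhibitor, had 6.90 ± 1.54 and 4.69 ± 0.255 FPKM, without overlap but above the threshold (adjusted p = 0.0730). Wnt6, Nkd1 and Dkk1 kept their calls under every alternative setting run, and 3 to 8 of the list fell when 1 sample was left out. Wnt4 and Wnt6 are also made in the mesonephros and mesothelium, whose genes fell in the same libraries; the part of those tissues was not tested.

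Other signals had at most 2 rising genes and 1 falling gene per list, beside 3.30% of all genes rising and 2.71% falling. Counts this small do not tell a pathway apart from that share. Of 18 BMP genes 0 were called. Fgf10, a mesenchymal ligand for the endoderm, rose from 3.51 ± 0.574 to 6.35 ± 1.49 FPKM (adjusted p = 0.0498) as 1 of 13 FGF genes, a call that 12 of the 19 alternatives did not keep. Dll1, a Notch ligand of new neurons and secretory cells, rose from 2.19 ± 0.869 to 5.47 ± 0.657 FPKM (adjusted p = 0.0119) as 1 of 13 Notch genes. Crabp1, a retinoic acid-binding protein of crest and mesenchyme, fell from 180 ± 70.5 to 67.3 ± 37.1 FPKM (adjusted p = 0.0436) as 1 of 12 retinoid genes, with overlap between the stages and a call lost in 12 of 19 alternatives. Among 20 axon guidance genes Sema3d and Nrp2 rose (0.79 and 0.37 on the log2 scale, adjusted p = 0.0286 and 0.0466), and Ntrk2, a neurotrophin receptor, fell (-1.31, adjusted p = 0.0329). The call of Nrp2 was lost in 14 of 19 alternatives and that of Ntrk2 in 10 of 18, and 0 to 5 genes of the list rose when 1 sample was left out.

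Part of the epithelial genes rose. Of 20 tested adhesion and epithelial identity genes 9 rose, 0 fell and 20 had a positive fold change, beside 52.5% positive among all genes; the median was 0.65. Epcam (chr17:87635979-87651127), the epithelial cell adhesion molecule, had 17.3, 21.1 and 21.8 FPKM at E10.5 and 38.4, 42.5 and 61.5 FPKM at E12.5 (1.13 ± 0.109, adjusted p = 0.00421). Its stages were far apart, and its call was kept under every alternative setting run. Lgals4, an intestinal galectin, rose from 1.85 ± 0.966 to 7.55 ± 4.86 FPKM (adjusted p = 0.0268), the tight junction genes Cldn7 and Cldn6 by 0.96 and 0.72 on the log2 scale (adjusted p = 0.0318 and 0.0188), and E-cadherin (Cdh1) by 0.64 (adjusted p = 0.0352). Without E10.5 male 5 or without E12.5 females 1 and 2 the count was 1, and it reached 10 without E10.5 female 3, whose adhesion level of 3.26 was the highest of its stage.

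Endodermal transcription factors did not move as 1 group. Of 17 tested, Foxa1 (4.29 ± 1.20 to 10.8 ± 1.90 FPKM, adjusted p = 0.00641), Klf5 (2.62 ± 0.777 to 7.73 ± 1.46 FPKM, adjusted p = 0.00854) and Elf3 (1.69 ± 0.183 to 4.85 ± 1.80 FPKM, adjusted p = 0.0184) rose; the calls of Foxa1, a pioneer factor of endoderm, and Klf5, a factor of proliferating epithelium, were kept under every alternative setting run. Gata6 fell from 22.1 ± 7.86 to 10.97 ± 3.69 FPKM (adjusted p = 0.0453) and Sox17, which endothelium also expresses, from 2.31 ± 0.685 to 1.39 ± 0.286 FPKM (adjusted p = 0.0498). The call of Gata6 was lost in 10 of 19 alternatives and that of Sox17 in 14 of 18, and 0 or 1 of the list fell when 1 sample was left out. Cdx2, the intestinal master regulator, had 3.47, 3.83 and 5.96 FPKM at E10.5 and 2.87, 3.54 and 21.4 FPKM at E12.5, and did not pass (adjusted p = 0.745). Its 21.4 FPKM came from E12.5 male 2. Genes of mature enterocytes and goblet cells were mostly low: 8 of 20 passed the filter and 0 were called. In the enteroendocrine list, the hormone gene Cck rose from 3.61 ± 0.792 to 10.9 ± 4.75 FPKM (adjusted p = 0.0331).

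Genes that mark a place along the gut depended on 1 library. Barx1, the homeobox gene of stomach mesenchyme, had 143, 139 and 76.0 FPKM in the 3 E12.5 females and 164, 0.230 and 85.4 FPKM in the 3 E12.5 males, against 0.650 to 38.3 FPKM at E10.5. E12.5 male 2 was thus below every E10.5 library, and Barx1 did not pass (2.76 ± 1.41, adjusted p = 0.276). The gastric protease gene Cym showed the same: 10.9 to 20.9 FPKM in 5 E12.5 libraries, 0.297 FPKM in E12.5 male 2 and 0.0793 to 0.433 FPKM at E10.5 (adjusted p = 0.0569). Of 5 tested stomach genes 0 were called in all samples, and 4 were called higher without E12.5 male 2. In that library the spleen gene Tlx1 was at 0.0311 FPKM, where the other E12.5 libraries had 3.04 to 6.15 FPKM, and the pancreatic and duodenal gene Pdx1 was listed at 0, as in E10.5 male 5. The intestinal genes Cdx2 and Isx were highest there, at 21.4 and 17.1 FPKM.

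Of 33 tested Hox genes 1 rose (3.03%, beside 3.30% of all genes) and 3 fell (9.09%, beside 2.71%). All 7 tested genes of groups 9 and 10, which are expressed in the hind part of the tube, had negative fold changes, with a median of -1.700, and 3 fell. Hoxc10 (chr15:102966796-102971897) had 5.14, 14.6 and 24.9 FPKM at E10.5 and 0.181, 1.79 and 4.71 FPKM at E12.5 (-2.32 ± 0.542, adjusted p = 0.0478). Hoxb9 averaged 9.56 ± 4.69 and 2.38 ± 0.882 FPKM (adjusted p = 0.0226) and Hoxc9 7.91 ± 1.59 and 1.61 ± 1.08 FPKM (adjusted p = 0.0292). These 3 did not overlap between the stages. Hoxa10 and Hoxd10 overlapped through E12.5 male 2, which had 22.1 and 21.2 FPKM, while E12.5 male 1 had 0.339 and 0.432 FPKM. Without E12.5 male 2, 5 of the 7 fell and the median was -2.07, and without E10.5 males 3 and 4 or without E12.5 females 1 and 2, 0 fell. In groups 1 to 4, expressed toward the front, 0 of 10 were called, with a median of 0.31. In groups 5 to 8 Hoxb5 rose as 1 of 11 (7.99 ± 2.08 to 13.8 ± 1.85 FPKM, adjusted p = 0.0438). Its stages overlapped, and its call was lost in 10 of 19 alternatives. Another 3 genes of groups 5 to 8 were lower at E12.5 without overlap, though not called. The mean level of these groups was lower at E12.5 within both sexes as labelled, in females only by 3.3201 against 3.3205 at the closest. Over both sexes the levels overlapped between the stages, the median log2 fold change was 0.03, and 6 of the 11 were positive. Without E12.5 male 2, 0 of the 11 rose and 2 fell. In groups 11 to 13, the most posterior, 5 of 9 genes passed the filter, 0 were called and 2 had positive fold changes, with a median of -0.05 and levels that overlapped between the stages. The labels do not say how much of the tube each library held, and the lengths sampled and the stage cannot be told apart.

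**Figure D3:**
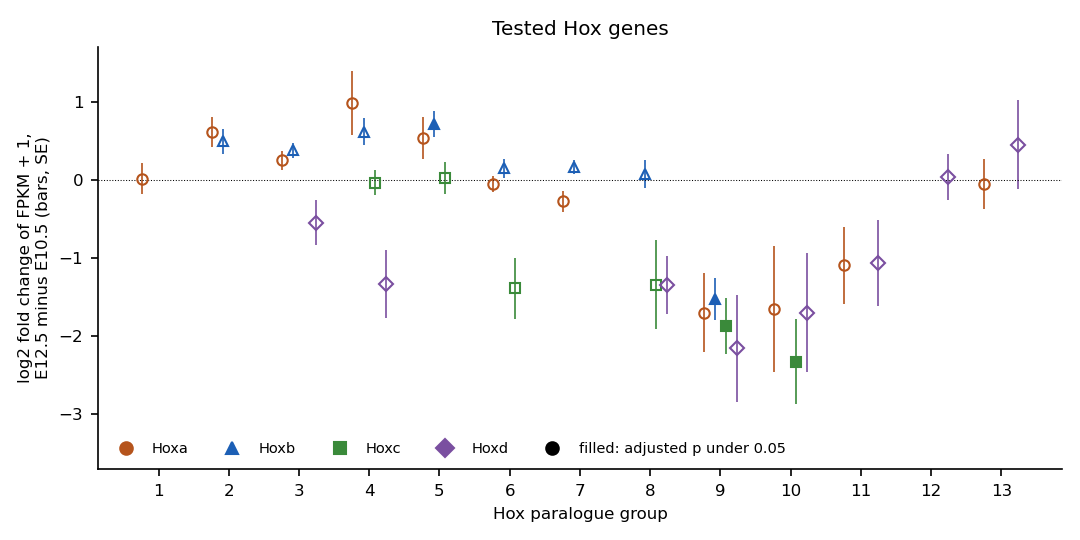
Log2 fold change of FPKM + 1 (E12.5 minus E10.5, vertical axis, with SE) of each tested Hox gene by paralogue group (horizontal axis), with the 4 clusters in different symbols and called genes filled. All 7 genes of groups 9 and 10 lie below 0, and 3 of them are called.

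Some endothelial genes fell and a pair of pericyte genes rose. Of 16 tested endothelial genes 0 rose and 4 fell, with a median of -0.38, -0.09 within females and -0.61 within males. The mucin Emcn fell from 25.7 ± 4.03 to 14.6 ± 2.71 FPKM (adjusted p = 0.0150), the VEGF receptor Kdr from 19.4 ± 1.52 to 14.4 ± 1.95 FPKM (adjusted p = 0.0422) and Egfl7 from 31.3 ± 2.59 to 22.0 ± 2.16 FPKM (adjusted p = 0.0179), while Pecam1 did not pass (23.8 ± 5.43 and 22.0 ± 1.90 FPKM, adjusted p = 0.726). No endothelial gene was called without E10.5 male 5 or without E12.5 females 1 and 2. Kcnj8 and Abcc9, the 2 subunits of the potassium channel of pericytes and smooth muscle, rose: Kcnj8 had 0.489, 3.97 and 5.56 FPKM at E10.5 and 9.37, 13.6 and 16.7 FPKM at E12.5 (1.89 ± 0.251, adjusted p = 0.0103), and Abcc9 3.25 ± 1.49 and 6.98 ± 1.20 FPKM (adjusted p = 0.0111). The other 5 tested pericyte genes, Rgs5 (12.3 ± 3.87 and 11.5 ± 4.36 FPKM) and Pdgfrb (26.1 ± 7.34 and 20.96 ± 2.76 FPKM) among them, were not called.

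Few blood cell genes were called. Of 13 macrophage genes 0 were called, and Csf1r, their receptor, had 6.32 ± 1.40 and 6.71 ± 1.699 FPKM. The granule genes Mpo and Prtn3 of myeloid cells fell (-1.19 and -0.61 on the log2 scale, adjusted p = 0.0225 and 0.0162), with overlap between the stages and E10.5 females above E10.5 males. The embryonic globins Hbb-bh1 (608 ± 475 and 131 ± 85.8 FPKM, adjusted p = 0.120) and Hba-x (1252 ± 462 and 490.5 ± 255 FPKM, adjusted p = 0.142) did not pass, and neither did any of 14 red cell genes. The log2 fold changes of the 2 globins were -2.11 ± 0.691 and -1.46 ± 0.515, and their libraries overlapped between the stages. Hbb-y, the embryonic globin with the most RNA, changed little (3018 ± 950 and 2695 ± 1013 FPKM, log2 fold change -0.21 ± 0.304, adjusted p = 0.730).

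Genes of the urogenital ridge fell. In the mesonephros and nephric duct list 10 of 15 genes passed the filter on low values, 6 fell and 0 rose, with a median of -1.16. Emx2 (chr19:59458690-59465357), a homeobox gene of the urogenital epithelium, had 6.65, 11.7 and 13.9 FPKM at E10.5 and 0.00596, 0.487 and 0.959 FPKM at E12.5 (-2.79 ± 0.253, adjusted p = 0.00416). Wnt9b, the ligand of the nephric duct, went from 1.32 ± 0.312 to 0.0483 ± 0.0689 FPKM (adjusted p = 0.00641), the kidney cadherin Cdh16 from 4.12 ± 1.71 to 0.294 ± 0.204 FPKM (adjusted p = 0.00732) and Pax8 from 1.49 ± 0.564 to 0.0445 ± 0.0147 FPKM (adjusted p = 0.00903). None of these 4 overlapped between the stages, and Emx2 and Wnt9b kept their calls under every alternative setting run. All 4 were below 1 FPKM at E12.5, so they passed the filter through E10.5 samples only and could only be called lower. Wt1 fell from 30.6 ± 6.11 to 13.4 ± 2.85 FPKM (adjusted p = 0.0166). Mesothelium expresses it too, and among mesothelial genes Upk3b (28.7 ± 5.56 and 27.7 ± 10.1 FPKM, adjusted p = 0.727) was not called, Tbx18 fell and Krt7 rose.

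Some gonadal and germ cell genes fell too. Nr5a1 (chr2:38692660-38714542), the steroidogenic factor of gonad and adrenal, had 1.74, 7.41 and 11.5 FPKM at E10.5 and 0.0157, 0.0595 and 1.43 FPKM at E12.5 (-2.43 ± 0.359, adjusted p = 0.0139). E12.5 female 3 held the 1.43 FPKM, and the other E12.5 libraries were at or below 0.0854 FPKM. It was the only call among 8 tested gonad and adrenal genes; Lhx9 had 7.92 ± 2.37 and 2.35 ± 1.32 FPKM, without overlap (adjusted p = 0.0678). Of 11 germ cell genes 5 passed the filter and 3 fell: Dppa5a (7.28 ± 4.37 to 0.103 ± 0.0623 FPKM, adjusted p = 0.0160), Utf1 (1.52 ± 1.04 to 0.0401 ± 0.0181 FPKM, adjusted p = 0.0303) and Dppa3 (2.07 ± 1.26 to 0.0389 ± 0.0514 FPKM, adjusted p = 0.0343), which are genes of pluripotent and primordial germ cells. All 3 were below 1 FPKM at E12.5, so they passed the filter through E10.5 samples only and could only be called lower. E10.5 female 3 was the lowest E10.5 library for all 3, at 1.40, 0.256 and 0.216 FPKM. Across the 353 falling genes E12.5 female 3 was the highest E12.5 sample for 183 (51.8%, beside 31.3% of all genes tested). Between 3 and 7 mesonephric genes and 0 and 3 germ cell genes fell when 1 sample was left out.

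**Figure D4:**
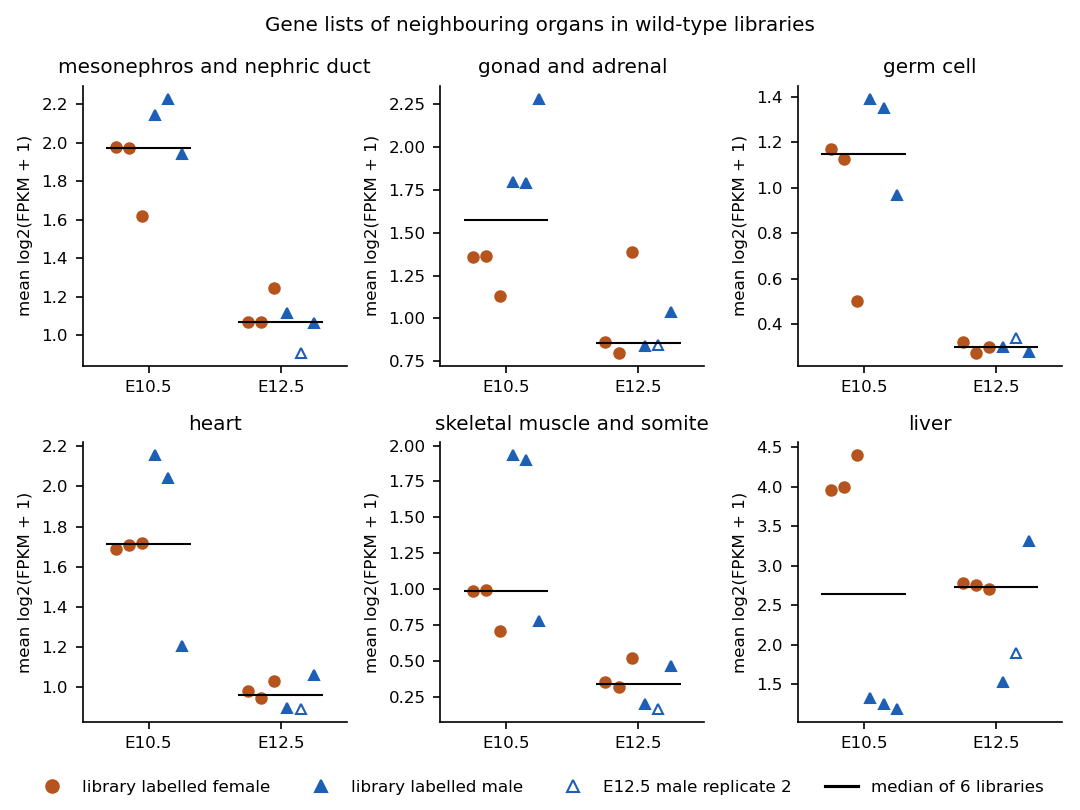
Mean log2(FPKM + 1) of 6 lists of neighbouring organs (vertical axis) in each wild-type library (circles, labelled female; triangles, labelled male; open triangle, E12.5 male 2; line, median). The mesonephros, germ cell, heart and somite lists do not overlap between the stages, and the liver list runs from 3.96 to 4.40 in E10.5 females and from 1.18 to 1.33 in E10.5 males.

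Some genes of the heart, somite and lung lists fell. Of 6 tested heart genes 2 fell, the atrial light chain Myl7 (6.64 ± 3.74 to 1.69 ± 0.571 FPKM, adjusted p = 0.00815) and slow troponin I Tnni1 (21.9 ± 7.39 to 3.88 ± 1.73 FPKM, adjusted p = 0.0103). In the somite list 3 of 12 passed the filter, and Pax1 (3.14 ± 1.90 to 0.143 ± 0.234 FPKM, adjusted p = 0.0308) and Meox1 (6.05 ± 3.35 to 1.76 ± 0.883 FPKM, adjusted p = 0.0454) fell. Tbx4, a factor of lung mesenchyme and hindlimb, had 9.48 FPKM in E10.5 female 3 and 0.209 FPKM in E10.5 male 5, and fell to 0.371 ± 0.275 FPKM (adjusted p = 0.0477), as 1 of 2 tested lung genes, with a call lost in 12 of 15 alternatives. Of 7 tested pancreas genes Mnx1 rose (0.378 ± 0.182 to 1.88 ± 0.858 FPKM, adjusted p = 0.0473), the only listed gene of a neighbouring organ to do so.

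Liver genes gave no call between the stages. Of 19 tested liver genes 0 were called, with a median of -0.21, -1.76 within females and 1.09 within males. Afp, the fetal liver protein, had 444, 440 and 633 FPKM in the E10.5 females and 3.32, 3.11 and 4.96 FPKM in the E10.5 males, and 104 FPKM in the averaged E12.5 females 1 and 2, 91.4 FPKM in E12.5 female 3 and 3.25, 20.8 and 164 FPKM in the E12.5 males. The E12.5 females lay below the E10.5 females, while E12.5 males 2 and 3 lay above the E10.5 males and E12.5 male 1 within them. For 18 of the 19 genes the fold change was negative within the libraries labelled female and positive within those labelled male, with E12.5 females 1 and 2, which also hold Ddx3y, counted as labelled. For 14 of the 19 the stage by sex term had an unadjusted p under 0.05, and the smallest adjusted p was 0.0590. E10.5 sex labels went with depth, and the 2 cannot be told apart.

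**Figure D5:**
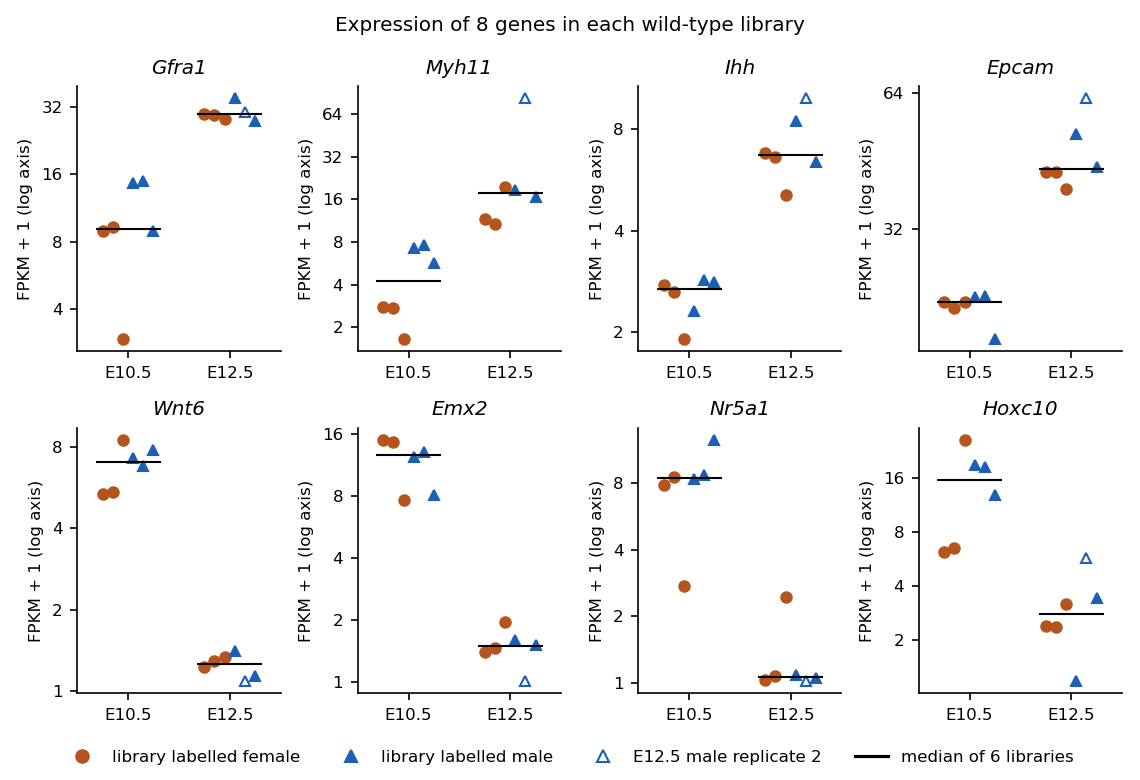
FPKM + 1 (vertical log axis) of 8 genes in each of the 12 wild-type libraries (circles, labelled female; triangles, labelled male; open triangle, E12.5 male 2; line, median of 6). Gfra1, Myh11, Ihh and Epcam lie higher at E12.5 and Wnt6, Emx2, Nr5a1 and Hoxc10 lower, without overlap in any of the 8.

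Of 8 tested timing genes 0 rose and 2 fell, beside 3.30% and 2.71% of all genes. The same shares stand beside the growth and cell cycle genes below. Lin28a and Lin28b, which block maturation of let-7 microRNAs, fell (-1.33 and -0.61 on the log2 scale, adjusted p = 0.0184 and 0.0170), but Lin28a had 5.32, 5.57 and 13.1 FPKM in the E10.5 females and 1.25 to 1.84 FPKM in the E10.5 males, against 0.762 to 1.30 FPKM at E12.5. The fold change was -2.25 within females and -0.42 within males, and the stages overlapped. Among 16 imprinted growth genes Plagl1 rose (137 ± 15.0 to 200 ± 17.6 FPKM, adjusted p = 0.0134) and Peg3 fell (157 ± 48.4 to 80.6 ± 22.4 FPKM, adjusted p = 0.0335). Of 22 cell cycle genes 0 were called, and their median was 0.02, -0.15 within females and 0.23 within males. For 18 of the 22 the fold change was negative within females and positive within males, as labelled. The stage by sex term of limma had an unadjusted p under 0.05 for 13 of them, and the smallest adjusted p was 0.0789.

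Several of the largest changes without overlap between libraries belonged to genes of no list. Among the 12 largest rises, the tetraspanin Tspan8 rose from 3.18 ± 1.29 to 17.7 ± 5.39 FPKM (2.15 ± 0.248, adjusted p = 0.00732), the ion transport regulator Fxyd3 from 1.96 ± 0.579 to 11.6 ± 4.33 FPKM (2.03 ± 0.231, adjusted p = 0.00732) and the glucuronosyltransferase gene Ugt2b34 from 2.88 ± 0.770 to 12.6 ± 1.66 FPKM (1.81 ± 0.149, adjusted p = 0.00369). All 3 calls were kept under every alternative setting run. Among the 12 largest falls, Kctd14 had 38.7, 38.6 and 3.19 FPKM in the E10.5 females, 36.4, 37.1 and 44.0 FPKM in the E10.5 males and 0.593 to 1.12 FPKM at E12.5 (-3.58 ± 0.564, adjusted p = 0.0163). Its low E10.5 library, female 3, was also the lowest of its stage in Nr5a1 and Dppa5a. The membrane endopeptidase Mme fell from 7.94 ± 2.70 to 1.08 ± 0.657 FPKM (-2.04 ± 0.237, adjusted p = 0.00732), the relaxin family receptor Rxfp2 from 5.18 ± 2.99 to 0.472 ± 0.272 FPKM (adjusted p = 0.00815) and the homeobox gene Prrx2 from 14.3 ± 8.53 to 3.73 ± 1.45 FPKM (adjusted p = 0.0369). The other falls were Gstm6, Shisa3, Etnk2 and Gpr50 besides Wnt6, Wnt4, Hoxc9 and Hoxc10 named above, with log2 fold changes of -2.51 to -1.52.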

How the data were processed

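Per the file headers, the authors deposited 1 gene-level FPKM value per gene and library, with an interval and a status. Per the labels' protocols, libraries were made from oligo dT-selected RNA with a TruSeq kit and sequenced in pairs. The submitters' processing notes name mm10 and the tools TopHat2, Cufflinks, Cuffdiff and Picard. Their versions and order, and any scaling between libraries, were not given in the sources used here.

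From the deposited FPKM, entries of the same gene name were summed (23847 entries, 23361 names) and starts are given counted from 1. Depth was estimated from the width of the authors' intervals; read counts were not used. Library pairs of 1 group whose spread was within 1.1 times counting noise, with no more than 1% of genes past 3 SD, over genes of 50 to 2000 implied fragments, were averaged (9 samples). FPKM sums were 411893 to 454393 and genes at 1 FPKM or more 12539 to 12897. Genes with at least 1 FPKM in 3 samples and status OK in all 12 libraries were tested on log2(FPKM + 1) with limma 3.58.1 (R 4.3.3, trended variance), with 4 stage-by-sex means, the contrast averaged over the sexes and Benjamini-Hochberg adjustment over all genes tested at 0.05. Fold changes are on the log2(FPKM + 1) scale, which understates low genes; means and SDs are over 4 E10.5 and 5 E12.5 samples, SE is the fit's. On simulated data for this comparison (13026 genes, 200 changed) 98% of changes of 1 and 100% of 2 on the log2 scale were recovered. The changed genes were drawn only from those with a mean log2(FPKM + 1) above 3, with independent normal noise. Recovery of lower genes, or with samples that stand apart as in these data, was not simulated. A list's level is the mean log2(FPKM + 1) over members with status OK.

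The members and the 56 gene lists were chosen with earlier results of these data known. Named genes are up to 6 per list by adjusted p with its defining markers, ligands and receptors, and the 12 rising and 12 falling genes of largest fold change among called genes whose libraries did not overlap, with a mean of at least 5 FPKM in the higher stage, outside the blood and neighbouring-organ lists and without microRNA, small nucleolar RNA, Rik, Gm, LOC and pseudogene entries. Alternatives were the counting of every library, a replicate block, no term for sex, a fit of all libraries, other pseudocount, filters, scaling and variance trend, and leaving out each sample. Results for some genes are not reported here.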

Additional observations from a re-analysis of the deposited data

Results flagged for a closer look

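In 476 groups of 4 or 5 samples, 45 results had 1 sample whose gap to the nearest other sample was large for the group's range by Dixon's test, which chance alone gives in about 1 in 20 groups; 23 of the 45 were E12.5 male 2 and 9 were E12.5 female 3. On the mean log2(FPKM + 1) scale, E12.5 male 2 was highest of its stage for the smooth muscle list (5.17), the list of interstitial cells of Cajal (4.04) and the hedgehog list (3.81), and lowest for the gut mesenchyme factors (3.72) and the enteroendocrine list (0.543). In single genes it was highest for Myh11 (81.9 FPKM), Actg2 (212), Cnn1 (48.6), Mylk (52.8), Lmod1 (3.86), Synpo2 (28.6), Acta2 (463), Myl9 (350.4), the neuropeptide gene Gal (15.3), Shh (25.2), Cldn7 (31.7), Cdx2 (21.4), Hnf4a (7.78), Isx (17.1) and Upk3b (45.2). It was lowest for Lef1 (0.351), Pax8 (0.0184) and Lhx9 (0.0325 FPKM, against 2.56 to 3.24 in the other E12.5 samples).

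E12.5 female 3 was highest of its stage for the pericyte list (3.17), Th (9.87 FPKM), Dbh (17.4), Wnt9b (0.169), Nr5a1 (1.43), Tbx18 (2.47) and Pax1 (0.548), and lowest for Foxf1 (58.6) and the sex-linked list (1.33). E12.5 male 1 was lowest for Hox groups 5 to 8 (2.92). At E10.5, female 3 was highest for the matrix gene Postn (298 FPKM, against 35.0 to 72.8), Cdh1 (13.3), Wnt2 (27.5) and Prrx2 (27.0). The averaged females 1 and 2 were highest for the stomach list (0.696), Mnx1 (0.651 FPKM) and the liver gene Ahsg (2.56), and lowest for Hox groups 9 and 10 (2.86). Male 5 was highest for Tagln (70.9 FPKM), Agr2 (0.871) and Notum (5.21), and the averaged males 3 and 4 for Rxfp2 (9.65).

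Many lists had median log2 fold changes of opposite signs within females and within males, and 6 of them were flagged. The flagged lists were liver (-1.76 and 1.09), pericyte (0.32 and -0.46) and Notch (0.34 and -0.35). With them were retinoid (0.157 and -0.0845), axon guidance (0.26 and -0.25) and glycolysis and hypoxia (-0.61 and 0.28). Lists with opposite signs that were not flagged included cell cycle (-0.15 and 0.23), fibroblast and matrix (0.15 and -0.38), mesothelium (-0.45 and 0.11) and neutrophil and mast cell (0.11 and -1.65). The difference was not tested for the lists. Over single genes, the stage by sex term of limma called 0 of 13026 after adjustment, and 2698 had an unadjusted p under 0.05.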

How the results depend on the processing

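No called gene examined singly changed direction under the alternatives run. Untested list medians near 0 did change sign: without E10.5 female 3, fibroblast from -0.08 to 0.05 and retinoid from 0.11 to -0.04; without E12.5 male 2, GDNF and endothelin from 0.09 to -0.07; without E12.5 females 1 and 2, macrophage from -0.05 to 0.11, pericyte from -0.07 to 0.08 and cell cycle from 0.0232 to -0.0032. The balance of calls turned to 230 higher and 311 lower without E10.5 female 3, to 376 and 407 with no filter and to 345 and 377 with scaling outside the blood and liver lists. Of the 122 genes so examined that were called, 16 kept their call in every alternative, 36 lost it in 1 to 4 and 70 in 5 or more, 32 of these in more than 8 of up to 19. Of 60 not called, 35 were called in at least 1 alternative. The 783 calls (430 higher, 353 lower) became 2993 (1529 and 1464) when every library was counted, 420 (226 and 194) without a term for sex and 487 with a filter at 5 FPKM, where 199 were lower. Leaving out 1 sample gave 123 to 975 calls, 58 to 573 higher and 65 to 402 lower. Within females 112 genes were called, 2086 with every library counted, 21 with no filter and 2 to 507 when 1 sample was left out. Within males 837 were called, 2964 with every library counted and 5 to 1118 when 1 sample was left out. The stage by sex term called 0 genes, 1905 with every library counted, 1 with a pseudocount of 0.1, 15 with no filter, 8 with scaling outside the blood and liver lists and 0 to 319 when 1 sample was left out. Apart from the smaller number of samples or genes tested in some settings, the cause was not tested.

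With every library counted and a replicate block, 357 genes were called, 201 higher and 156 lower. The replicate numbers did not pair the samples: deviations of same-numbered libraries had correlations of -0.046, -0.050 and -0.053 in females and 0.018 in males. Depth was known only through the authors' intervals, and E10.5 libraries, at 8.60 to 21.1 M fragments, measured genes near 1 FPKM less precisely than E12.5 libraries, at 28.0 to 38.1 M.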
